A study of Mus musculus with 6 samples.

Results

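Cytokine receptors, the Janus kinases (JAKs) that carry their signals and the suppressors of cytokine signalling (SOCS proteins) that end them were followed in mouse fat before and after grafting. The group comprised 51 of the 12163 genes in the deposited table: every protein-coding gene whose symbol names an interleukin receptor, gp130 (Il6st), a colony-stimulating factor 1 or 2 gene, an interferon receptor, the oncostatin M, LIF, leptin, prolactin or growth hormone receptor, a JAK, Tyk2, a SOCS protein, Cish or a Crlf gene, with Il1rn, Il4ra, Csf1r and Socs3 set aside. The rule reads names and no measured value, but it was set with earlier results of these data known. By role, 43 members were receptors or receptor-like genes, 1 was a ligand (Csf1), 2 were kinases (Jak2 and Jak3) and 5 were SOCS family genes. GENCODE M21 holds 69 protein-coding genes that match the same names, and 18 of these, among them Il6ra, Il7r, Il2rg, Il2ra, Il12rb1, Jak1, Tyk2, Csf2, Socs4 and Socs6, were outside the table and were not analysed here.

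The mice were wild type and of the inbred strain C57BL/6, and their fat gave 3 libraries taken before grafting and 3 taken 7 days after it. The series describes each group as 3 biological replicates. Age, sex, fat depot, graft site and any pooling of animals are not stated in the labels. Values are normalized counts, that is, the reads of a gene divided by 1 size factor per library, and the listed genes took 13027776 to 15924559 reads per library. The table appears to hold mainly genes that differ: of 10854 genes tested, 10772 reached p below 0.05 before adjustment, and only 51 had a log2 fold change between -0.25 and 0.25. Shares of called genes are therefore high throughout, and a member's presence in the table is not a result.

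Class I and class II cytokine receptors have no kinase of their own. They bind JAKs, which phosphorylate STAT transcription factors when ligand brings receptor chains together, and STATs in turn switch on SOCS genes, whose products block the receptor or the kinase. Receptors of the interleukin 1 and interleukin 17 families signal instead through adaptors such as MyD88 and Act1, and several families include decoys that bind ligand without signalling. In fat, adipocytes are known for growth hormone, leptin and gp130 family receptors, while infiltrating leukocytes carry most interleukin and colony-stimulating factor receptors.

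RefSeq promoter windows (GRCm38.p6, 250 bases before to 50 bases after a start site) were matched for 40 of the 51 members and searched on both strands for TTCNNNGAA, the palindromic core that STAT factors recognise. At least 1 window held this motif in 7 members, or 17.5% of those matched, against 9.55% of the 27025 genes in the promoter table. A match is a description of letters in a window and not a measured binding site. The Cish window held 2 copies, starting at bases 251 and 262, as did 1 of the 3 windows of Il18r1, and 0.457% of all 32851 windows held 2 or more. Below are the Cish window and those of Ifnar2, Ifnar1 and Il1r2, which each held 1 copy. Cish is shown because it is the classical STAT-induced feedback gene and fell, and the others as examples of members that rose. Csf2rb2, which also rose and held 1 copy, is not shown. Capitals mark the motif.
Cish (chr9:107296409-107296708, plus strand): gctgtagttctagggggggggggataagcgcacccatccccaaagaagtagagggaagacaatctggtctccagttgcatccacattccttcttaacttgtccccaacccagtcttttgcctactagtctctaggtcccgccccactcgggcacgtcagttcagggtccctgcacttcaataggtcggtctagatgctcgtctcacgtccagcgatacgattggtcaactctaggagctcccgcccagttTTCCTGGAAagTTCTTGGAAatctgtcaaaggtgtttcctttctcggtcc
Ifnar2 (chr16:91372533-91372832, plus strand): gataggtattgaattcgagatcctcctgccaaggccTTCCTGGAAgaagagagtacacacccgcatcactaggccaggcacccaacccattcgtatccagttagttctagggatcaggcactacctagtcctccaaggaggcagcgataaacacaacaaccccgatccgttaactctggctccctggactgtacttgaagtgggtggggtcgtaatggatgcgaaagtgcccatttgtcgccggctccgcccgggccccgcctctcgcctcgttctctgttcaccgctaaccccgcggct
Ifnar1 (chr16:91484965-91485264, plus strand): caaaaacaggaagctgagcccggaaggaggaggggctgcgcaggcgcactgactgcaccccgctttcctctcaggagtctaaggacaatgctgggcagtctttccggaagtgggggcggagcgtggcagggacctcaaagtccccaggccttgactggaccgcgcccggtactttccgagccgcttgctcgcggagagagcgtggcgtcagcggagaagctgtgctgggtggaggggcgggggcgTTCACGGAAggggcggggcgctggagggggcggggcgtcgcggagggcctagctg
Il1r2 (chr1:40085843-40086142, plus strand): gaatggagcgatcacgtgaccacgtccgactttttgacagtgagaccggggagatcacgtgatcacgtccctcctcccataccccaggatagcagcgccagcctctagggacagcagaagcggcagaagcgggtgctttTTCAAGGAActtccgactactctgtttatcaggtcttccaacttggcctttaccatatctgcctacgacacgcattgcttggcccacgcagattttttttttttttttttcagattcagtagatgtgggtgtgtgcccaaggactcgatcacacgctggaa
The motif was found in members of both directions: Cish and Prlr fell, Csf2rb2, Ifnar1, Ifnar2 and Il1r2 rose, and Il18r1 was not called.

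The comparison asks how expression of these genes differs between grafts of day 7 and the fat before it was grafted. Differences are on the log2(normalized count + 1) scale, and "called" means an adjusted p under 0.05 with limma. Receptors for interleukin 1, GM-CSF, interleukin 13, interleukin 10 and type I interferon rose, while receptors for growth hormone, leptin, prolactin and LIF and most interleukin 17 receptors fell. Of 50 tested members, limma called 27 higher and 16 lower in grafts, and 7 were not called. That is 86% called, against 80.4% of all tested genes, so the share of called members stood near that of the table. For higher calls the shares were 54% of members and 41.3% of all tested genes, and for lower calls 32% and 39.2%. The median log2 fold change was 0.89 over the tested members and 0.28 over all tested genes. A change of at least 1 on the log2 scale was called upward in 23 members (46%, against 25.6% of all tested genes) and downward in 13 (26%, against 27.8%). Only genes with 10 in 3 or more libraries were tested. Il5ra, Il9r, Il17rb, Il17re and Il22ra2, counted in both sets of lower calls, entered the test only through the libraries before grafting. Their adjusted p is no separate support for a change. The 3 values of 1 group lay wholly above those of the other in 48 of 50 tested members (96%, against 97.6%). Under a scaling that holds 73 ribosomal protein genes at no change (ribosomal scaling), which shifts the median of all genes by -0.84, 18 members were higher and 22 lower, so that 45.0% of calls were upward in place of 62.8%.

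**Figure D1:**
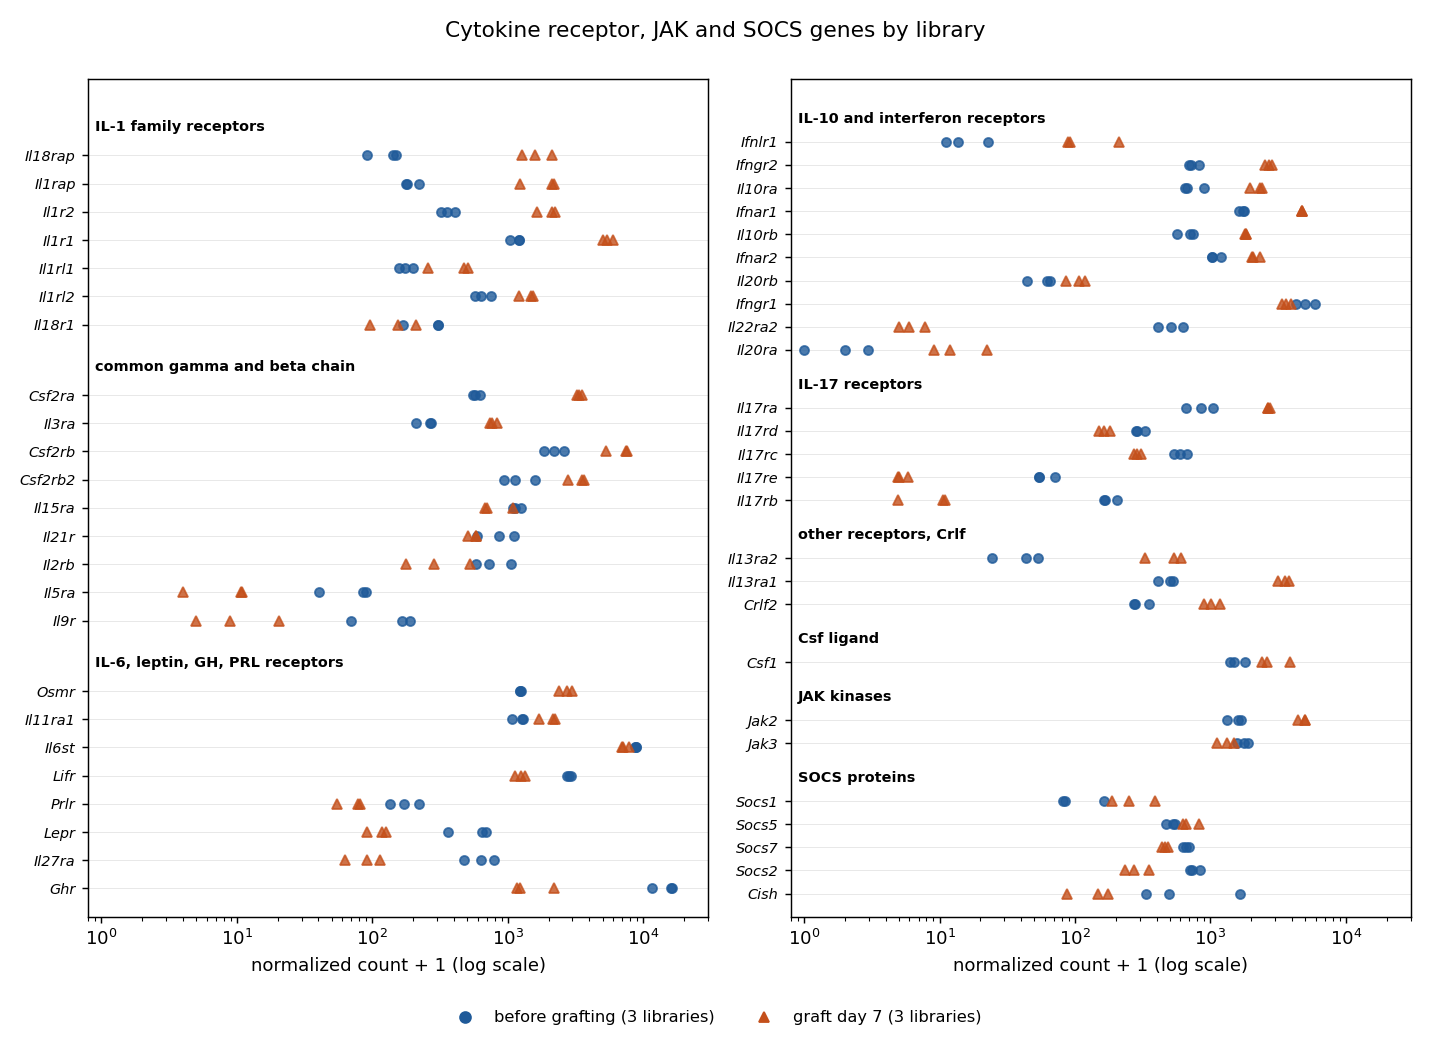
Normalized count plus 1 (log axis) of 50 members in each library, by role; circles are the 3 libraries before grafting and triangles the 3 grafts. The 2 sets of symbols are apart for most genes and meet for Il18r1 and Il15ra.

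Ordered by level per kilobase, the leading members changed places. Before grafting, Ifngr1, the ligand-binding chain of the interferon gamma receptor, led (1777 ± 274 normalized counts per kilobase, SD, n = 3, as for all levels here) and Ghr, the growth hormone receptor, came next (1622 ± 291), with ranges of 1515 to 2061 and 1286 to 1803 that overlapped. Il6st, the shared gp130 chain, followed with 786 ± 6.4. Together Ifngr1 and Ghr made up 16.2% and 14.8% of the members' summed level. In grafts Csf2ra, the ligand-binding chain of the GM-CSF receptor, stood first with 1827 ± 68.4, above Ifngr1 with 1280.2 ± 105.7, and their ranges of 1759 to 1896 and 1182 to 1392 were apart. Il1r2 (1047 ± 164), Jak2 (957 ± 66.6), Il13ra1 (948 ± 87.9) and Csf2rb (929 ± 173) followed, and these 4 overlapped one another. Ghr went to 169 per kilobase. All levels per kilobase use the deposited lengths, which may count exons that this tissue does not use.

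Of the 7 interleukin 1 family receptors, 6 rose and 1 was not called. Among all tested genes 41.3% were called higher and 39.2% lower. This count and the later ones by role, list or chromosome row were not tested against those shares and only describe the genes. Il1r1, the signalling receptor for interleukin 1, had 1201, 1200.5 and 1037 normalized counts in the libraries before grafting and 5358, 5056 and 5968 in grafts. Every graft lay above every library before grafting, with a log2 fold change of 2.25 (adjusted p = 4.95e-06, SE 0.11). Il1r2, the decoy that binds interleukin 1 without signalling, had 405, 320.1 and 356 before and 1639, 2132 and 2222 after, likewise without overlap, and rose by 2.46 (adjusted p = 1.38e-05, SE 0.15). Il1rap, the accessory chain that interleukin 1, interleukin 33 and interleukin 36 receptors share, went from 221, 180.3 and 177 to 1220.3, 2134 and 2206 and rose by 3.22 (adjusted p = 3.47e-05, SE 0.23). The lowest graft, replicate 1, still held over 5 times the reads of the highest library before grafting. Its exons overlap an antisense gene, and the strand use of the counting is not given.

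The interleukin 18 receptor chains parted. Il18rap, the accessory chain needed for signalling, had 149, 90.2 and 141 before grafting and 1277, 1581 and 2121 in grafts, the largest rise of the family at 3.71 (adjusted p = 2.24e-05, SE 0.24). Il18r1, the ligand-binding chain, had 303, 167 and 304 before and 95.4, 154 and 208 after, so that the groups overlapped. It was not called (log2 fold change -0.77, adjusted p = 0.26, SE 0.34), but was called lower under ribosomal scaling (-1.53, adjusted p = 0.0142). Il1rl1, the interleukin 33 receptor ST2, had 173, 156 and 199.7 before and 258, 474 and 508 after and rose by 1.17 (adjusted p = 0.0157, SE 0.26). Graft replicate 1 was the lowest of the 3 grafts, and the Il1rl1 call was lost without each of before-grafting replicate 1 (0.059), before-grafting replicate 2 (0.0696), graft replicate 2 (0.0588) and graft replicate 3 (0.0586) (adjusted p in parentheses), with upper quartiles made equal (0.94, adjusted p = 0.053) and under ribosomal scaling (0.41, adjusted p = 0.917). Il1rl2, the interleukin 36 receptor, went from 754, 636 and 568 to 1198, 1488 and 1522, a rise of 1.10 (adjusted p = 0.000805, SE 0.14) that was not called under ribosomal scaling (0.34, adjusted p = 0.278).

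Ligands came from a list of 46 cytokines drawn up for the member receptors as a whole, not for this family alone. It also holds ligands whose receptors are not members, among them Csf3, Il34 and Il7. Of the list 25 were in the table and 21 were tested: 13 rose and 6 fell, the median being 2.52 against 0.28 over all tested genes. The largest changes were those of Il1b, from 12.8, 7.09 and 14.8 to 14007, 30010.0 and 22872 (10.78), its antagonist Il1rn (9.66), the neutrophil growth factor Csf3 (9.27) and leptin (Lep, -8.65). Csf3 had 0.99, 0.00 and 2.95 before grafting, so the size of its rise rests on few reads there. Other ligands are named, here and further on, because they bind a member described beside them or, as Il34 does, share a member's receptor. They were picked after their values were seen. Il33, an alarmin of stromal cells, had 413, 302 and 478 before and 2122, 2429 and 2191 after, and Il18 went from 86.8, 72.9 and 93.5 to 272, 244 and 289. No values overlapped for either ligand. Il1a had 26.6, 8.10 and 20.7 and 829, 2396 and 1656. Among 6 tested adaptor genes of the interleukin 1 and 17 receptors, 5 rose (3 under ribosomal scaling) and 1 fell. Irak3, a kinase-like protein that restrains MyD88 signalling, went from 400.3, 348 and 342 to 3540.2, 3473 and 3567, a rise of 3.28 (adjusted p = 8.67e-07, SE 0.10). The kinase Irak2 rose by 1.81 (adjusted p = 0.000419, SE 0.20) and Myd88 by 1.63 (adjusted p = 1.1e-05, SE 0.09). Sigirr, an orphan receptor that restrains this family, fell from 318, 262 and 280.3 to 109, 104 and 73.2, a log2 change of -1.60 (adjusted p = 0.000732, SE 0.20).

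Of the 9 receptors of the common beta and common gamma chain systems, 4 rose, 2 fell and 3 were not called, and the 4 that rose were all in the GM-CSF and interleukin 3 system. Csf2ra had 624, 555 and 567 before grafting and 3378, 3252 and 3505 in grafts, with a log2 fold change of 2.54 (adjusted p = 1.66e-06, SE 0.09). The grafts lay within 8% of one another. Csf2rb, the signalling beta chain shared by GM-CSF, interleukin 3 and interleukin 5, had 2579.5, 1853 and 2173 before and 5306, 7527 and 7449.6 after and rose by 1.61 (adjusted p = 0.0003, SE 0.17). Its neighbour Csf2rb2, the mouse beta chain dedicated to interleukin 3, went from 1581, 929 and 1134 to 2783, 3619 and 3511, a rise of 1.47 (adjusted p = 0.00106, SE 0.20) that was not called under ribosomal scaling (0.71, adjusted p = 0.0502). Csf2rb and Csf2rb2 are close copies, so reads may have been divided between them. Il3ra, the ligand-binding chain for interleukin 3, had 267, 269 and 211 and then 836, 764 and 735, a rise of 1.65 (adjusted p = 6.95e-05, SE 0.14). Exons of Il3ra overlap an antisense gene.

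Il5ra, the eosinophil receptor chain for interleukin 5, fell; it pairs with the same beta chain. It had 88.7, 39.5 and 83.6 before grafting and 3.01, 9.70 and 9.89 in grafts, a log2 fold change of -3.12 (adjusted p = 0.00302, SE 0.51). Il9r, which marks some T cells and mast cells, went from 189, 68.9 and 164 to 4.02, 19.4 and 7.91 and fell, with a log2 change of -3.75 (adjusted p = 0.00234, SE 0.58). The groups of both genes were apart, and the graft values rest on few reads. Both genes entered the test (10 in 3 or more libraries) only through the libraries before grafting. Il2rb, which serves interleukin 2 and interleukin 15 on T and natural killer cells, had 1052, 585 and 720.0 before and 175, 525 and 285 after. Graft replicate 2 came close to the lowest library before grafting, and Il2rb was not called (log2 fold change -1.36, adjusted p = 0.0558, SE 0.39), though it was called without graft replicate 2 (0.00501) (adjusted p in parentheses). Il21r had 1105, 588 and 853 and 579, 584 and 504 (-0.57, adjusted p = 0.157, SE 0.21) and was called without before-grafting replicate 2 (0.0102). Il15ra had 1087, 1241 and 1136 and 704, 682 and 1098 (-0.51, adjusted p = 0.126, SE 0.18), with graft replicate 3 inside the range before grafting, and was called without graft replicate 3 (0.00432). Equal upper quartiles and ribosomal scaling also called Il15ra and Il21r lower, and all 4 other scalings called Il2rb lower.

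In fat sampled as bulk RNA, fewer cells of a type and less RNA per cell cannot be told apart. All 6 T cell markers and all 6 B cell markers fell in grafts. The summed T cell markers went from 2997 to 5152 normalized counts before grafting to 205 to 539 in grafts, and the summed B cell markers from 5978 to 12562 before to 242 to 563 after. The part of lymphocyte content in the falls of Il5ra and Il9r was not tested. All 6 macrophage and monocyte markers and all 6 neutrophil markers rose, with sums of 20771 to 23538 before and 180685 to 188995 after for the first list and of 726 to 862 before and 57692 to 92211 after for the second. Their part in the rises was not tested either. Of these 24 markers, 0 were at 0 in any library. Of 4 listed markers of mesenchymal progenitors 2 rose and 1 fell, with sums of 18574 to 20292 before and 26757 to 41489.7 after. Of 2 listed endothelial markers 1 fell (4744 to 5671 before and 1647 to 2590.1 after), and of 2 listed natural killer cell markers 1 fell (383 to 617 and 106 to 281). For mast cells and basophils, 3 markers were listed, and Cpa3 and Mcpt4 were not called (adjusted p = 0.0876 and 0.0751); the sums were 658 to 775 before and 46.2 to 392 after, and Mcpt8 was at 0 in every library before grafting. The part of these cells was not tested.

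Among the 8 receptors of the gp130, leptin, growth hormone and prolactin group, 5 fell, 2 rose and 1 was not called. Ghr, which drives Igf1 expression through STAT5, had the largest fall of this group, from 11643, 16090.1 and 16326 normalized counts to 2198, 1235 and 1168. Graft replicate 1 was the highest graft, yet the highest graft stayed at less than 19% of the lowest library before grafting, and the log2 fold change was -3.30 (adjusted p = 4.75e-05, SE 0.25). Lepr, the leptin receptor, had 692, 361 and 642 before and 90.4, 124 and 118 after, a log2 change of -2.30 (adjusted p = 0.00044, SE 0.26); its long and short forms are not told apart at gene level. Prlr, the prolactin receptor, went from 221, 135 and 169 to 54.2, 77.6 and 80.1, a log2 change of -1.29 (adjusted p = 0.0084, SE 0.25). The groups were apart for each of these hormone receptors. Exons of Prlr overlap Gm21973, an annotated coding gene on the same strand, so their reads may not be fully apart.

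Within the gp130 family the partner chains moved in opposite directions. Lifr, the LIF receptor, fell from 2726, 2816 and 2906 to 1131, 1327 and 1249, a log2 change of -1.19 (adjusted p = 5.79e-05, SE 0.09). Osmr, the oncostatin M receptor, rose from 1225, 1235 and 1247 to 2374, 2964 and 2754, by 1.12 (adjusted p = 0.000131, SE 0.10), and was not called under ribosomal scaling (0.36, adjusted p = 0.0633). The 3 libraries before grafting agreed within 7% for Lifr and within 2% for Osmr. Their common partner Il6st had 8760.1, 8646 and 8776 and then 7119.6, 6943 and 7844; the grafts lay below, but the change missed the threshold (log2 fold change -0.26, adjusted p = 0.121, SE 0.09), and it passed when values were rescaled by median ratios (-0.38, adjusted p = 0.0288), to equal listed totals (-0.39, adjusted p = 0.0488) or to equal upper quartiles (-0.49, adjusted p = 0.00703), or under ribosomal scaling (-1.02, adjusted p = 7.64e-05). Il11ra1, the interleukin 11 receptor, went from 1266, 1298 and 1081 to 1686, 2138 and 2229.6, a rise of 0.73 (adjusted p = 0.00568, SE 0.13) whose sign turned under ribosomal scaling (-0.04, adjusted p = 1). Close copies of Il11ra1 lie beside it, and its exons overlap Ccl27a on the opposite strand, so its value is uncertain. Il27ra, the interleukin 27 receptor of lymphocytes, fell from 786, 472 and 637 to 62.3, 113 and 91.01, a log2 change of -2.83 (adjusted p = 0.000136, SE 0.26), and overlaps Palm3 on the opposite strand.

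Of the listed ligands of these chains, Il6, Il11, Osm, Lif and Ebi3 were called higher and Ctf1 (cardiotrophin) and Lep lower. Ebi3 and Il27 encode the subunits of interleukin 27. Ebi3 rose by 2.21 (adjusted p = 0.000102, SE 0.195), and Il27 was not called (1.77, adjusted p = 0.127, SE 0.63). Il6 rose by 7.75 (adjusted p = 4.86e-05, SE 0.59) and Il11, the ligand of Il11ra1, by 3.69 (adjusted p = 0.00341, SE 0.62). Il6, Il11 and Il27 entered the test only through the grafts, and Lep only through the libraries before grafting. For these genes the adjusted p is no separate support for a change. Ctf1, which signals through Lifr and gp130, went from 51.3, 92.2 and 63.9 to 13.1, 22.3 and 23.7, a log2 change of -1.76 (adjusted p = 0.00848, SE 0.35). Osm, made by myeloid cells, went from 41.4, 22.3 and 43.3 to 373, 890.3 and 427 and Lif from 35.5, 51.7 and 55.1 to 279, 558 and 247, rises of 3.89 (adjusted p = 0.000189, SE 0.38) and 2.83 (adjusted p = 0.000495, SE 0.33). Lep, the hormone of adipocytes, fell from 7683, 9135 and 10769 to 149.6, 6.79 and 8.90, with graft replicate 1 far above the other grafts. All 6 adipocyte markers (Adipoq, Plin1, Cidec, Pparg, Lep and Fabp4) fell, with summed levels of 171446 to 235508 before grafting and 3769.8 to 16344 in grafts. Graft replicate 1 was the highest graft both for that sum and for Ghr, and the part of adipocyte content in the Ghr fall was not tested.

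**Figure D2:**
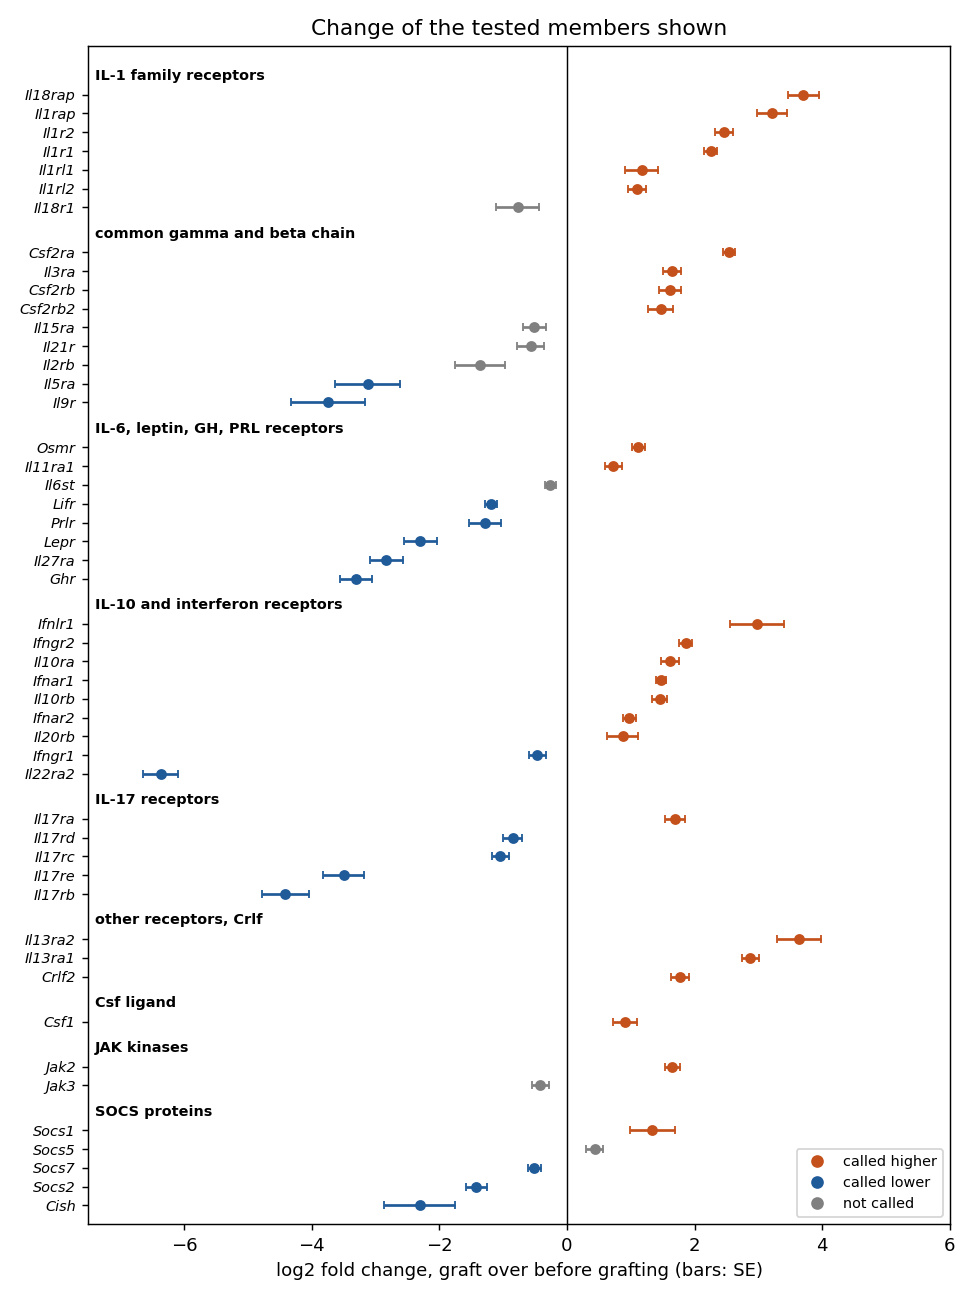
Log2 fold change, grafts over before grafting, of 49 tested members by role; bars are the standard error and colours the call at an adjusted p under 0.05. The values shown run from -6.37 for Il22ra2 to 3.71 for Il18rap, and Lifr and Osmr stand on opposite sides of 0.

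Of the 9 tested receptors for interleukin 10 relatives and interferons, 7 rose and 2 fell. Il10ra, the ligand-binding chain for interleukin 10 on leukocytes, went from 890.4, 669 and 645 to 1964, 2413 and 2334, a rise of 1.62 (adjusted p = 0.000118, SE 0.15). Il10rb, the chain it shares with interleukin 22 and interferon lambda receptors, had 738, 562 and 702 before and 1834, 1803 and 1815 in grafts (1.45, adjusted p = 6.62e-05, SE 0.12). Ifnar1 and Ifnar2 form the type I interferon receptor. Ifnar1 had 1769, 1625 and 1728 before and 4728, 4748 and 4726 after, a rise of 1.47 (adjusted p = 1.1e-05, SE 0.08) with grafts within 1% of one another. Ifnar2 went from 1032, 1206 and 1024 to 2075, 2315 and 2034, a rise of 0.98 (adjusted p = 0.000292, SE 0.11) that was not called under ribosomal scaling (0.22, adjusted p = 0.468).

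The interferon gamma receptor chains differed. Ifngr2, the signalling chain, rose from 818, 694 and 713 to 2517, 2717 and 2849.9, by 1.86 (adjusted p = 9.96e-06, SE 0.10). Ifngr1 had 4312, 5869 and 4999 before and 3963, 3365 and 3606 after, and its small fall, with a log2 value of -0.47 (adjusted p = 0.0461, SE 0.13), was not called without each of before-grafting replicate 2 (0.125), before-grafting replicate 3 (0.138), graft replicate 2 (0.183) and graft replicate 3 (0.13) (adjusted p in parentheses). Ifnlr1, the interferon lambda chain of epithelia and some leukocytes, had 21.7, 10.1 and 12.8 and 88.4, 90.2 and 209.7 (2.98, adjusted p = 0.00146, SE 0.43), with graft replicate 3 the highest. Il20rb, which serves interleukins of the IL-20 group, went from 43.4, 60.8 and 63.9 to 119, 85.3 and 106, at 0.88 (adjusted p = 0.0456, SE 0.25). The Il20rb call was lost without before-grafting replicate 1 (0.152), before-grafting replicate 2 (0.0821), before-grafting replicate 3 (0.0795), graft replicate 1 (0.138), graft replicate 2 (0.0539) and graft replicate 3 (0.126), that is, without any library, and under all 4 other scalings. Its partner Il20ra was too low to test, with 3 reads in all before grafting and 41 in grafts, a ratio of 13.6 (95% exact counting interval 4.33 to 68.5, counting error only).

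Il22ra2, a secreted decoy for interleukin 22 that dendritic cells are known to make, had the largest fall of all members. It held 625, 408 and 509.5 normalized counts before grafting and 4.02, 6.79 and 4.95 in grafts, a log2 fold change of -6.37 (adjusted p = 3.48e-06, SE 0.28). The highest library after grafting held under 2% of the lowest before. Il22ra2 entered the test (10 in 3 or more libraries) only through the libraries before grafting, so its adjusted p is no separate support. The decoys thus did not move together: Il1r2 and Il13ra2 rose and Il22ra2 fell.

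Of the 5 interleukin 17 receptors, 4 fell and 1 rose. Il17ra, the chain common to the family, was the member that rose, from 1036, 659 and 857 to 2645, 2679.5 and 2773, by 1.69 (adjusted p = 0.00013, SE 0.16). Il17rc, its partner for interleukin 17A and 17F, fell from 591, 666 and 535 to 271, 288 and 308, a log2 change of -1.04 (adjusted p = 0.000585, SE 0.13). Il17rd, a co-receptor that also restrains FGF signalling, went from 288, 325 and 281 to 151, 163 and 181 (-0.85, adjusted p = 0.00421, SE 0.15). The groups were apart for each of these 3 genes. Il17rb, the receptor for interleukin 25, had 167, 164 and 203 before and 10.04, 9.70 and 3.96 after, a log2 change of -4.41 (adjusted p = 7.13e-05, SE 0.36), and overlaps Actr8 on the opposite strand. Il17re, the receptor for interleukin 17C on epithelia, had 53.3, 53.7 and 69.8 and 4.02, 4.85 and 3.96 (-3.50, adjusted p = 0.000119, SE 0.32). Il17rb and Il17re entered the test (10 in 3 or more libraries) only through the libraries before grafting. The ligand genes Il17a and Il17f were too low to test: both were at 0 in every library before grafting and held 4.02, 99.9 and 39.6 and 1.00, 32.00 and 6.92 normalized counts in grafts.

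The interleukin 13 receptors and the receptor of TSLP rose. Il13ra1, which pairs with Il4ra to bind interleukin 4 and interleukin 13, had 504, 408 and 528 before grafting and 3179.7, 3831 and 3548 in grafts, a log2 fold change of 2.88 (adjusted p = 3.74e-06, SE 0.13). Il13ra2, the interleukin 13 decoy, went from 52.3, 23.3 and 42.3 to 325, 605 and 538, by 3.63 (adjusted p = 0.000161, SE 0.35). Crlf2, the TSLP receptor, had 351, 273 and 278 and 1171, 1009.6 and 903 (1.77, adjusted p = 7.17e-05, SE 0.15), while its ligand Tslp fell from 16.8, 31.4 and 41.3 to 4.02, 5.82 and 6.92. Il4ra, the shared interleukin 4 and 13 chain set aside from the group, rose too, from 2190.0, 1472 and 1627 to 11312, 10124 and 12217.

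Csf1, the growth factor of macrophages, was the 1 ligand among the members. It had 1791, 1481 and 1392 before grafting and 2408, 3893 and 2611 in grafts, a log2 fold change of 0.91 (adjusted p = 0.0109, SE 0.19). Graft replicate 2 was the highest and no values overlapped, but the call was lost without each of before-grafting replicate 2 (0.0553) and before-grafting replicate 3 (0.0591) (adjusted p in parentheses) and under ribosomal scaling (0.15, adjusted p = 1). Il34, the other ligand of the same receptor, fell from 457, 669.6 and 522 to 77.3, 84.4 and 62.3, a log2 change of -2.86 (adjusted p = 2.87e-05, SE 0.20). The receptor Csf1r went from 4033, 3662 and 3434 to 17146, 17645 and 15474.

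Of the kinases, Jak2, which serves growth hormone, GM-CSF and interferon gamma receptors, rose from 1599, 1331 and 1689 to 4428, 5021 and 4995, by 1.65 (adjusted p = 3.03e-05, SE 0.12). Jak3, which is tied to the common gamma chain of lymphocytes, had 1769, 1893 and 1564 before and 1498, 1119 and 1314 after. Exons of Jak3 overlap Insl3, a coding gene on the same strand. The Jak3 grafts lay below, but the change was not called (-0.42, adjusted p = 0.0754, SE 0.13); it was called without graft replicate 1 (0.0295) (adjusted p in parentheses) and when rescaled by median ratios (-0.53, adjusted p = 0.0305), equal totals (-0.54, adjusted p = 0.0347), equal upper quartiles (-0.65, adjusted p = 0.00848) or under ribosomal scaling (-1.18, adjusted p = 0.000249). Of 7 STAT genes 4 were in the table, and 2 rose, 1 fell and 1 was not called (median 0.24); under ribosomal scaling 1 rose and 2 fell, and 2 fell with median ratios and with equal upper quartiles. Stat3, the main effector of gp130 receptors, rose from 3158, 2927 and 2750.2 to 6035, 6554 and 6445, by 1.11 (adjusted p = 7.94e-05, SE 0.09), and Stat6, the interleukin 4 and 13 effector, by 0.71 (adjusted p = 0.000679, SE 0.09), a value that turned to -0.05 under ribosomal scaling (adjusted p = 1). Stat5a, an effector of growth hormone and prolactin receptors, fell from 1106, 1101 and 1086 to 757, 651 and 642, a log2 change of -0.69 (adjusted p = 0.00168, SE 0.10). Stat5b had 1789.7, 1644 and 1681 and 1369, 1459 and 1536 (-0.23, adjusted p = 0.183, SE 0.09) and was called lower with median ratios (-0.35, adjusted p = 0.0337), equal upper quartiles (-0.47, adjusted p = 0.00988) and ribosomal scaling (-0.99, adjusted p = 8.43e-05).

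The SOCS family divided as well: 1 of 5 members rose, 3 fell and 1 was not called. Cish, whose product blocks STAT5 docking sites, had 1639, 336 and 492 normalized counts before grafting and 86.4, 146 and 173 in grafts. Replicate 1 before grafting was over 3 times the other libraries of its group. The log2 fold change was -2.31 (adjusted p = 0.0256, SE 0.56), or -1.64 (adjusted p = 0.0173) without that library, and the call was lost without each of before-grafting replicate 3 (0.0553), graft replicate 1 (0.0843) and graft replicate 2 (0.0757) (adjusted p in parentheses). Gm17040, a listed pseudogene, overlaps Cish on the opposite strand. Socs2, which restrains growth hormone signalling, fell from 736, 702 and 836 to 273, 350.1 and 233, a log2 change of -1.42 (adjusted p = 0.000442, SE 0.16), with the groups apart. Socs7 went from 691, 663 and 624 to 484, 458 and 441, a log2 change of -0.52 (adjusted p = 0.00883, SE 0.10).

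Socs1, the feedback inhibitor of interferon and gamma chain cytokines, had 163, 84.1 and 80.7 before and 188, 389.9 and 249 in grafts. It rose by 1.34 (adjusted p = 0.0333, SE 0.35), with the highest library before grafting close to the lowest graft. Its call was lost without each of before-grafting replicate 2 (0.144), before-grafting replicate 3 (0.144), graft replicate 2 (0.103) and graft replicate 3 (0.0802) (adjusted p in parentheses), with equal listed totals (1.21, adjusted p = 0.0533), equal upper quartiles (1.11, adjusted p = 0.0796) and ribosomal scaling (0.58, adjusted p = 0.808). Socs5 had 529, 472 and 551 and 629, 824 and 654 and was not called (0.43, adjusted p = 0.0718, SE 0.13), with the sign turned under ribosomal scaling (-0.33, adjusted p = 0.263). Socs3, set aside from the group, had 325, 151 and 169 and 9559, 12555 and 11449, a rise of 5.77 (adjusted p = 5.36e-06, SE 0.27). All 3 listed partners of the SOCS box, Elob, Eloc and Rnf7, rose, by 0.71, 0.75 and 0.57 on the log2 scale, and 0 of 3 did under ribosomal scaling, where their signs turned (-0.05, -0.01 and -0.19).

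Other regulators and targets of the pathway were read from fixed lists. Of 16 phosphatases, PIAS proteins and adaptors of JAK signalling, 12 were tested, 6 rose and 1 fell, with 2 and 3 when upper quartiles were made equal and 1 and 5 under ribosomal scaling. The phosphatases Ptpn1, Ptpn2 and Ptpn6, which act on JAKs, rose by 1.62, 1.21 and 0.72, and the adaptor Sh2b2 by 0.73. Under ribosomal scaling Ptpn2 (0.45), Ptpn6 (-0.05) and Sh2b2 (-0.04) were not called, and Ptpn6 and Sh2b2 also lost their call with median ratios and equal upper quartiles. The gene that fell was Sh2b1, which enhances JAK2 activity (-0.61, adjusted p = 0.00677, SE 0.12); it was named after its values were seen. Of 12 STAT target genes 11 were tested, 8 rose (5 under ribosomal scaling) and 2 fell. Arg1, an arginase that STAT6 induces in macrophages, went from 4.93, 4.05 and 3.93 to 44428, 45038 and 26938, and Retnla, also a STAT6 target, from 3539, 3874 and 3437 to 6.03, 21.3 and 3.96. Pim1, a STAT-induced kinase, had 493, 388 and 382 and 3866, 5384 and 4073, and Bcl3 rose by 2.69 (adjusted p = 1.21e-05, SE 0.16). Igf1, the target of growth hormone and the other gene that fell, went from 5325, 7737 and 7962 to 1704, 1615 and 1447 (-2.12, adjusted p = 4.8e-05, SE 0.16); it was named after its values were seen.

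Many members are neighbours on a chromosome, a property the selection did not use (coordinates GRCm38, GENCODE M21). On chromosome 1, Il1r2 (40074079 to 40125231), Il1r1 (40225080 to 40317257), Il1rl2 (40324610 to 40367562), Il1rl1 (40429570 to 40465415), Il18r1 (40465552 to 40500854) and Il18rap (40515362 to 40551705) follow one another on the plus strand with 0 other coding genes between them. Along this row 5 of 6 genes rose, and Il18r1, which begins 136 bases after Il1rl1 ends, lay between a neighbour at 1.17 and one at 3.71 with a value of -0.77. On chromosome 16, Ifnar2 (91372783 to 91405589), Il10rb (91406164 to 91425834), Ifnar1 (91485238 to 91507441) and Ifngr2 (91547072 to 91565623) lie in a row on the plus strand, and all 4 rose, by 0.98, 1.45, 1.47 and 1.86. An annotated gene, Gm21970, shares exons with Ifnar2 and Il10rb, so their reads may not be fully apart. Since 41.3% of all tested genes were called higher, the counts along these rows are descriptions only.

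Other neighbours differed. Osmr (chromosome 15, 6813577 to 6874969, minus strand) and Lifr (chromosome 15, 7090614 to 7197489, plus strand) are adjacent coding genes and moved in opposite directions (1.12 and -1.19). Ifngr1 (chromosome 10, 19591949 to 19610229, plus strand) and Il22ra2 (chromosome 10, 19621998 to 19634681, plus strand) are 11768 bases apart, with log2 fold changes of -0.47 and -6.37. Il17re (chromosome 6, 113458484 to 113470758, plus strand) ends 668 bases before Il17rc (chromosome 6, 113471427 to 113483140, plus strand), and both fell (-3.50 and -1.04). Csf2rb2 and Csf2rb on chromosome 15 both rose.

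**Figure D3:**
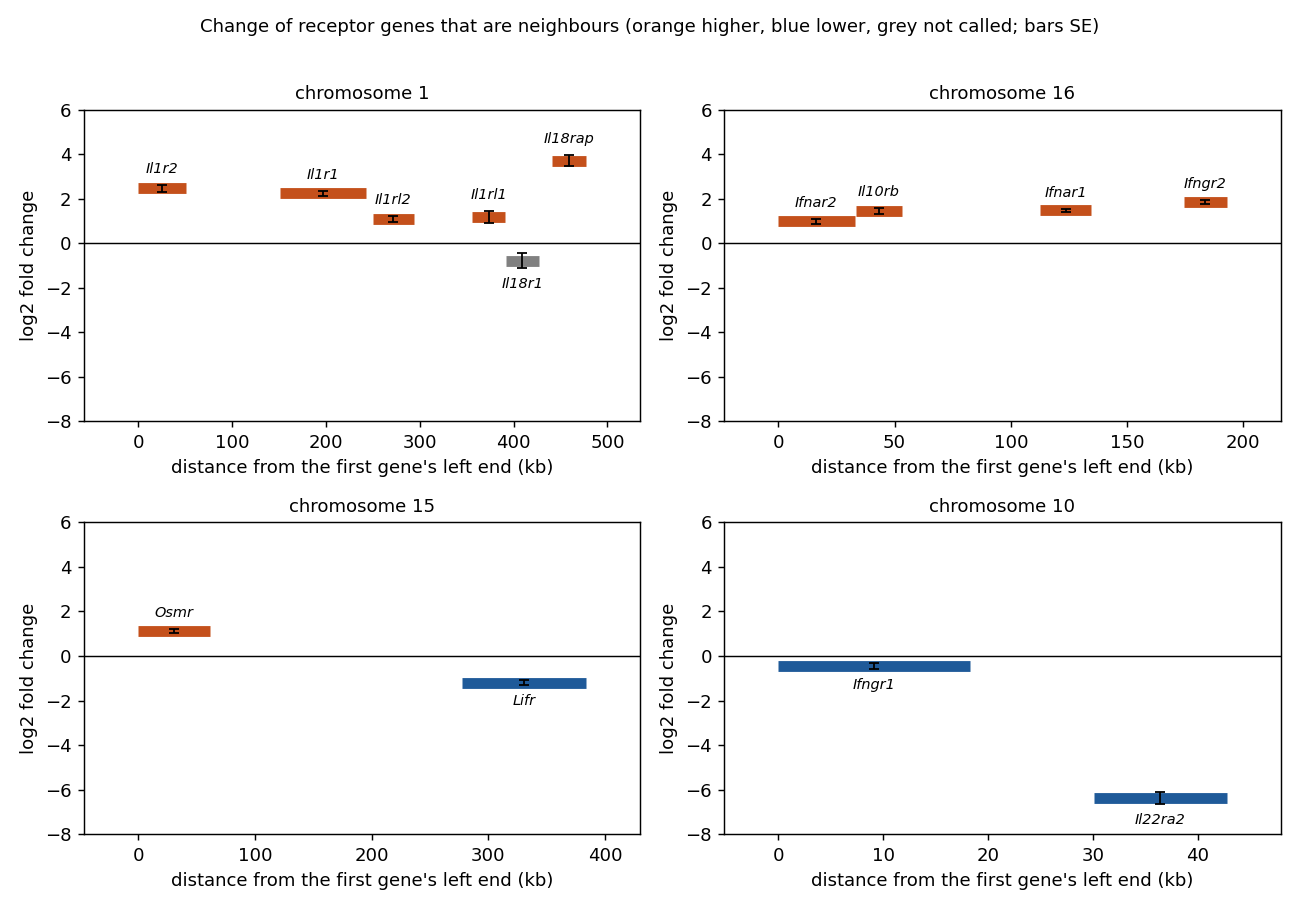
Log2 fold change (bars: SE) of neighbouring receptor genes against distance from the left end of the first gene, in kilobases; each coloured bar spans its gene. All 4 genes of the chromosome 16 row lie above 0, and Il18r1 lies below 0 between risen neighbours.

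Ratios of 2 genes within a library do not depend on the size factor. Of 22 chosen pairs, 15 had both genes in the table, and the libraries of the 2 groups did not overlap in 10 of them. Over single tested genes 97.6% did not overlap, so this count is no result about the pairs. An exact two-sided permutation test of 3 against 3 libraries cannot give a p below 0.10, so no pair could pass the threshold, and the smallest p adjusted over the 15 pairs was 0.15. Il18rap to Il18r1, per kilobase, was 0.352, 0.387 and 0.331 before grafting and 9.46, 7.27 and 7.25 in grafts, a change of 4.48 on the log2 scale. The ratio thus went from below 1 to above 1 in every library. Osmr to Lifr was 0.4, 0.39 and 0.382 before and 1.87, 1.99 and 1.96 after (2.31), also crossing 1. Ifngr2 to Ifngr1 went from 0.144, 0.0895 and 0.108 to 0.48, 0.61 and 0.597 (2.33) and stayed below 1. Il17rc to Il17ra fell from 1.85, 3.27 and 2.03 to 0.334, 0.35 and 0.361 (-2.73). Socs1 to Socs2 went from 0.728, 0.397 and 0.32 to 2.26, 3.65 and 3.5 (2.76). The decoy and the signalling receptor of interleukin 1 kept overlapping ratios, with Il1r2 to Il1r1 at 1.13, 0.891 and 1.15 before and 1.02, 1.41 and 1.24 after, a difference of 0.21 on the log2 scale (exact permutation p = 0.4).

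The remaining separate pairs were Il1rl1 to Il1rap, Csf2rb to Csf2ra, Ifnar2 to Ifnar1, Il17rd to Il17ra and Ghr to Prlr. Their log2 ratios changed by -2.04, -0.92, -0.49, -2.54 and -2.02. Il13ra2 to Il13ra1, Il10rb to Il10ra, Cish to Socs2 and Lepr to Ghr overlapped between the groups.

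**Figure D4:**
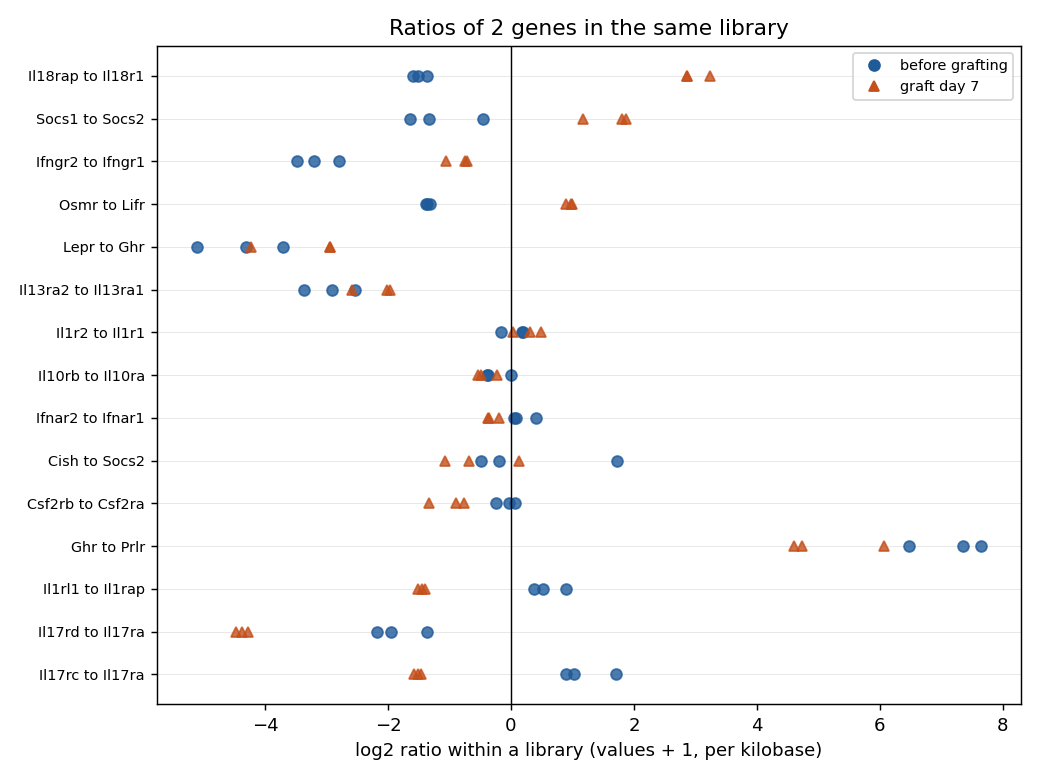
Log2 ratio of 2 genes per kilobase within each library for 15 pairs, ordered by change; circles are libraries before grafting and triangles grafts. A log2 ratio of 0 is equal level per kilobase. Il18rap to Il18r1, Osmr to Lifr, Il17rc to Il17ra, Socs1 to Socs2, Il1rl1 to Il1rap and Ifnar2 to Ifnar1 cross it, and Il1r2 to Il1r1 overlaps.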

How the data were processed

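Each deposited table gives a normalized signal per gene, which the authors scaled by 1 factor per library: in all 6 libraries 100% of values were multiples of a common step (tolerance 0.01 reads). Per-sample tables equal the series table. Levels per kilobase used the gene lengths that the authors deposited (other unit: base pairs). The submitters' processing notes name Bowtie 0.12.2, HISAT2 2.0.5, mm8 and mm9. For the counter, strand use, scaling tool and gene filter, the method is not given in the sources used here. Coordinates match GRCm38: 51 of 51 members lie within 1000 bp of their GENCODE M21 position.

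Genes reaching 10 in 3 or more libraries were analysed on the log2(value + 1) scale with limma 3.58.1 (R 4.3.3; trend, robust; group as the only term; two-sided). In limma, Benjamini-Hochberg adjustment ran over 55450 annotated genes, untested ones counting as not changed. The variance prior comes from a table rich in differing genes, which limits every adjusted value. Fold changes of low genes are understated. Il1a, Il1b, Il6, Il11, Il27, Csf3 and Arg1 passed the filter on low values only with the grafts, where they were higher. Il5ra, Il9r, Il17rb, Il17re, Il22ra2, Lep, Retnla and Tslp passed it only with the libraries before grafting. For these genes the adjusted p is no separate support for a change. Pair ratios used exact permutation (scipy 1.17.1, Python 3.11.15). The fit was also run on simulated counts in which only a small part of the genes changed. That setting is unlike this table, so the run does not check the adjusted values here. Whether replicate numbers pair the libraries is not stated in the labels. Same-numbered libraries had correlations of deviations of -0.157, -0.127 and 0.041, which cannot settle it. Alternatives were 4 scalings, 2 pseudocounts, no filter on low values, adjustment over tested genes, a replicate block and leaving out each library.

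Members, lists and pairs were chosen with earlier results of these data known. Members are described by role, and 1 member, which is included in all counts, is not reported here. Of each pathway list at most 4 called genes with the largest change are named, apart from those said to be picked after their values were seen.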

Additional observations from a re-analysis of the deposited data

How the results depend on the processing

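Of the 43 called members, 32 kept direction and call in all 15 alternatives run, and 37 did so without any 1 library. Without 1 library, members called higher numbered 23 to 26 and members called lower 14 to 16. Rescaling moved the median log2 fold change of all genes by -0.13 (median ratios), -0.14 (equal listed totals), -0.25 (equal upper quartiles) and -0.84 (ribosomal protein genes held fixed). Higher and lower members then numbered 26 and 19, 25 and 19, 24 and 21, and 18 and 22. Under that last scaling, 1879 genes in all were higher, against 4479, and 24.7% of all calls were upward against 51.3%, or 39.5% with equal upper quartiles. That scaling turned the sign of Il11ra1 (-0.037) and Socs5 (-0.33). The replicate block gave 25 higher and 14 lower members, and Cish, Ifngr1, Il20rb and Socs1 lost their call (adjusted p = 0.0631, 0.119, 0.124 and 0.0994). The planned count tests were not run, because a check of recovered reads did not accept 2 libraries with a step close to 1. The steps of all 6 libraries ran from 0.970 to 1.013. Read numbers given in the text are values divided by these steps. Depth limits Il20ra, the graft values of Il5ra, Il9r, Il17rb, Il17re and Il22ra2, and the values of Il6, Il11 and Csf3 before grafting. The cause of each of these shifts was not tested.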
